A study of Mus musculus with 4 samples.

Results

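The places where the miR-181 family sat on its target RNAs were read from chimeric Ago2 eCLIP-seq of overloaded mouse plantaris muscle. The family is mmu-miR-181a-5p, mmu-miR-181b-5p, mmu-miR-181c-5p and mmu-miR-181d-5p, and its members were all lines of both peak tables that name one of these 4 arms, out of 659 miRNA names in both tables together. In the control library they made up 597 of 93468 lines, where a line is 1 peak with 1 miRNA, and fell in 494 of 20754 peaks. In the mimic library they made up 648 of 100897 lines and fell in 557 of 21872 peaks. Each line carries a number of chimeric reads, reads in which a miRNA and the RNA fragment beneath it were ligated to each other while both were held by Ago2.

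Both libraries came from the plantaris of male C57BL/6J mice aged 5 months after 10 days of mechanical overload (MOV), in which removal of the synergist muscles loads the plantaris. The MOV control muscle had received a control lentivirus, and the MOV mimic muscle a lentivirus encoding a mimic of miR-1. Both viruses carried a Turbo-GFP reporter under a mouse CMV promoter, which is not restricted to muscle fibers, and both groups were overloaded, so neither shows an unloaded muscle. Each group had 1 library, whether both came from 1 mouse was not stated, and input libraries of both groups were not analysed here. The comparison asks whether extra miR-1 moved miR-181 on its targets, and without replicates there was no test between the libraries, so every difference below describes these libraries and intervals cover counting error only.

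A miRNA guides Ago2 to RNAs by pairing, above all through its seed, the bases that follow its first base at the 5′ end. Sites in the 3′ untranslated region of mRNAs that match the seed are those through which miRNAs are best known to lower mRNA stability and translation. miR-181 is known from immune cell development, from vascular and muscle differentiation and from mitochondrial control, and all its members share 1 seed. Their mature sequences, which set which sites the family can pair with and how its members could be told apart in a read, are shown 5′ to 3′ with bases 2 to 8, the seed, in capitals.
miR-181a-5p: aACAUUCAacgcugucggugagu
miR-181b-5p: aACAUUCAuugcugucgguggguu
miR-181c-5p: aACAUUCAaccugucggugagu
miR-181d-5p: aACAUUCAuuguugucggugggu
The sequences are those of RefSeq on GRCm38.p6. miR-181a-5p lies at chr1:137966468-137966490 (plus strand) and again at chr2:38852741-38852763 (plus strand), with miR-181b-5p close by each copy at chr1:137966650-137966673 and chr2:38853845-38853868. miR-181c-5p lies at chr8:84178924-84178945 and miR-181d-5p at chr8:84178759-84178781, both on the minus strand. Counted from 1 at the 5′ end of miR-181a-5p, miR-181b-5p differs by A9U, C10U and A21G and is 1 base longer. miR-181d-5p differs from miR-181a-5p by A9U, C10U, C12U and A21G, and from miR-181b-5p by C12U alone within their shared length. miR-181c-5p is 1 base shorter than miR-181a-5p and shares its first 10 and its last 12 bases. How reads were divided among such similar names was not stated, so single members are less certain than their sum.

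The family held a small and similar part of both libraries. Its peaks were 2.38% of all peaks in MOV control (95% interval 2.18 to 2.60) and 2.55% in MOV mimic (2.34 to 2.76). Its chimeric reads summed to 608.5 (561.6 to 659.3) in MOV control and 630.4 (581.8 to 681.2) in MOV mimic, which were 0.262% and 0.243% of all chimeric reads. The mimic library was deeper by a factor of 1.12, with 259207 chimeric reads against 232408. The ratio of miR-181 reads, mimic over control, was 1.04 (0.924 to 1.16) as deposited and 0.929 (0.828 to 1.04) after division by the library totals. Other miRNAs together had a ratio of 1.12 (1.11 to 1.12). When miRNAs were grouped by shared seed, 111 other seed families had at least 50 peaks in each library. A name without a RefSeq mature sequence, such as miR-1a-3p or miR-133a-3p, was kept as a family of its own. Such a name can share its seed with another of the families. Of the 111 families 64 had a higher ratio than miR-181 and 47 a lower one, and their median ratio was 1.06 with 5th and 95th percentiles of 0.724 and 1.48.

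miR-181a-5p carried most of the family's reads. This arm, mmu-miR-181a-5p, had 421.1 reads in 366 peaks of the control and 412.5 reads in 399 peaks of the mimic, or 69.2% and 65.4% of the family. mmu-miR-181b-5p had 112.2 reads in 137 peaks of the control and 140.2 reads in 148 peaks of the mimic. mmu-miR-181d-5p had 44.0 reads in 50 peaks and 44.5 reads in 67 peaks, and mmu-miR-181c-5p had 31.2 reads in 44 peaks and 33.2 reads in 34 peaks. The order of the members by reads was the same in both libraries, but the intervals of miR-181c-5p and miR-181d-5p overlapped within each library. The ratio of mimic to control was 0.980 (0.854 to 1.13) for miR-181a-5p, 1.25 (0.968 to 1.62) for miR-181b-5p, 1.06 (0.632 to 1.80) for miR-181c-5p and 1.01 (0.643 to 1.55) for miR-181d-5p. All of these intervals include 1. With at least 3 reads per peak the ratio of miR-181b-5p was 2.34, and that of miR-181d-5p was 0.611 with at least 1 read and 0.585 with at least 3. Most peaks held a single member, 422 of 494 in MOV control and 482 of 557 in MOV mimic. Peaks with several members had more family reads, with a median of 2.05 in MOV control and 2.02 in MOV mimic, against 0.731 and 0.674 in peaks of a single member.

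**Figure D1:**
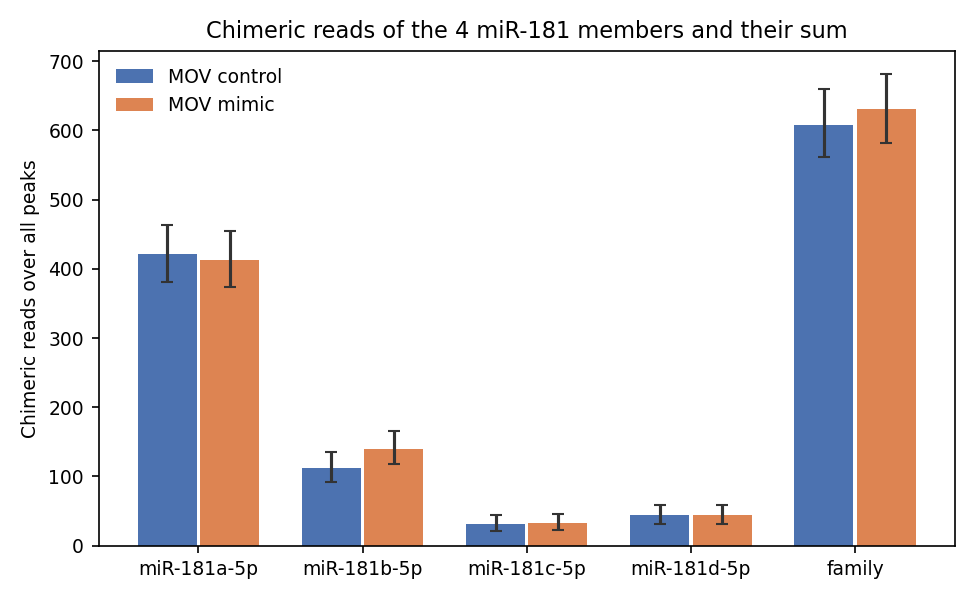
Chimeric reads (y axis) of each miR-181 member and of their sum, in the MOV control and MOV mimic libraries, 1 library each, with 95% Poisson intervals as error bars. The bars of both libraries stand at similar heights for each member, with miR-181a-5p at 421.1 and 412.5 reads.

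Most miR-181 peaks rested on very few reads. The median family reads per peak was 0.828 in MOV control and 0.759 in MOV mimic, and values under 1 read occurred because the deposited numbers are mostly fractions, whose origin was not stated. Peaks under 1 read were 62.8% of the family's peaks in MOV control and 66.2% in MOV mimic, and held 25.6% and 25.8% of its reads. At the other end, 33 control peaks and 36 mimic peaks had at least 3 reads, the minimum of the study's own target list, and these held 37.7% and 39.8% of the reads. A median miR-181 peak was shared with other miRNAs, with 6 miRNA names in MOV control and 7 in MOV mimic, against 3 for all peaks in each library.

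miR-181 peaks differed in how much of the peak belonged to the family. A peak was called led by miR-181 where the family had at least 1 read and more reads than any other seed family there, a definition chosen after the data had been seen. Names without a RefSeq sequence counted singly, so a rival seed could be split, which makes a led call easier. In MOV control 47 peaks were led, and in MOV mimic 51 peaks, or 9.51% and 9.16% of the family's peaks. Among the 111 other seed families, the median share of led peaks was 6.38% in MOV control and 6.13% in MOV mimic, with 34 and 37 families above miR-181. Led peaks were small, with a median of 3.14 reads of all miRNAs in MOV control and 3.64 in MOV mimic, and miR-181 held a median of 66.9% and 55.7% of those reads. They carried 22.2% and 24.0% of the family's reads. The other peaks of at least 1 miR-181 read, 137 in each library, had a median of 17.8 and 24.5 reads of all miRNAs, and miR-181 held a median of 8.0% and 6.10% of them.

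**Figure D2:**
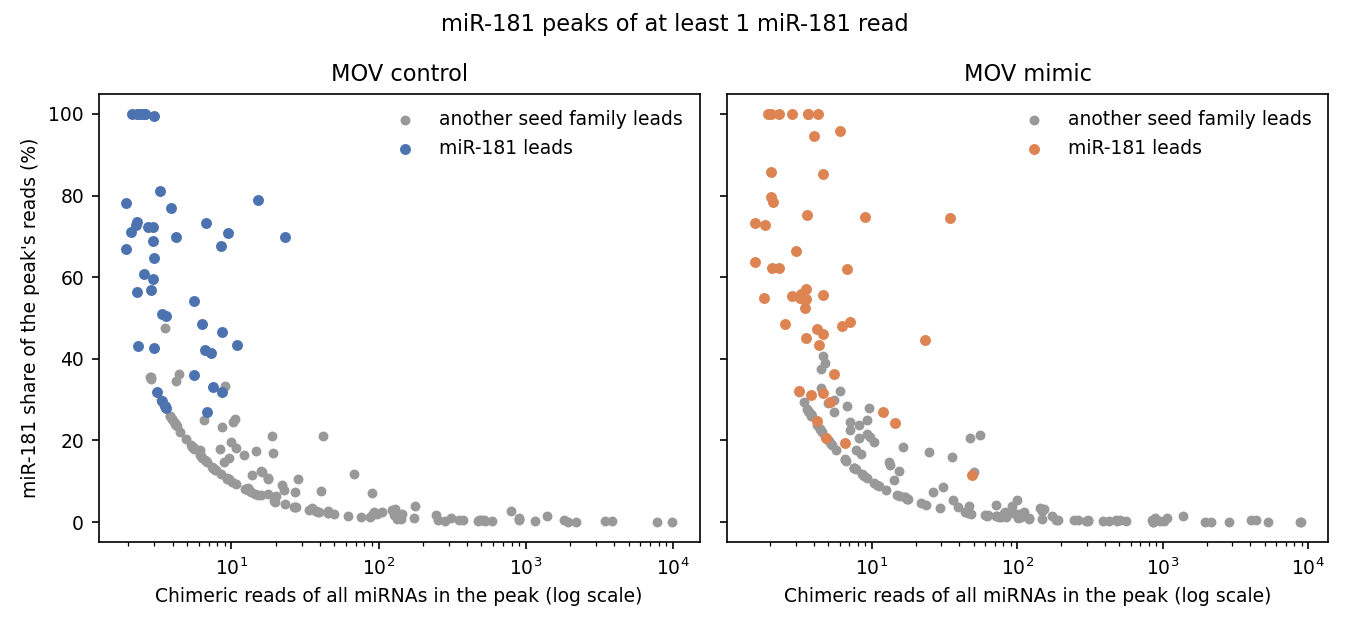
Share of a peak's chimeric reads that belonged to miR-181 (y axis, %) against the chimeric reads of all miRNAs in that peak (x axis, log scale), for peaks with at least 1 miR-181 read in the MOV control (left) and MOV mimic (right). Colored points are peaks led by miR-181 and gray points those in which another seed family had as many reads or more. The 47 and 51 led peaks sit at the left and top, and the peaks with the most reads lie near 0%.

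The strongest led peak was on Chchd10, which encodes a mitochondrial intermembrane space protein mutated in motor neuron disease and myopathy. Chchd10 carried 11.9 miR-181 reads in MOV control and 26.6 in MOV mimic. Its peak at chr10:75937579-75937697 (GRCm38, plus strand) held all 11.9 control reads, 78.8% of the reads of all miRNAs there. In MOV mimic the peak at chr10:75937572-75937715 held 25.7 reads, 74.5% of the total, and the next miRNA, miR-486b-5p, had 6.58. The control reads were all named miR-181a-5p, and those on the gene in MOV mimic were named miR-181a-5p (21.7) and miR-181b-5p (4.85). The ratio of miR-181 reads was 2.23 (1.1 to 4.88), while the reads of other miRNAs on Chchd10 were 16.8 and 16.9. This ratio was not divided by the library totals, and the mimic library was deeper by a factor of 1.12.

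The longest Chchd10 transcript of the GENCODE vM1 set holds neither the match to bases 2 to 8 of the seed nor the shorter match to bases 2 to 7. It holds instead an unbroken run of 12 bases complementary to bases 11 to 22 of miR-181a-5p, in the 3′ untranslated region, 88 nt from the transcript's end. Counted from the end of the gene, the control peak spans 53 to 171 nt and the mimic peak 35 to 178 nt, so the run falls inside both. The site is shown because it is the place on the family's strongest peak that pairs best with miR-181a-5p. Capitals mark the 13 bases that are complementary to it when all 23 bases are laid side by side without a gap.
Chchd10: cCTCACCGACAGCtTgatggaaa
The longest complementary run in the same windows was 11 bases for miR-181c-5p, 10 for miR-181b-5p and 8 for miR-181d-5p. Of 20283 protein-coding transcripts, 1 per gene, 6 hold the same 12 bases. Of these genes only Chchd10 had miR-181 reads in either library, and of the others only Usp40 was bound by any miRNA.

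Plpp3, a phosphatase that removes phosphate from signaling lipids such as lysophosphatidic acid, had the second strongest led peak. It carried 16.3 miR-181 reads in MOV control and 10.5 in MOV mimic. The control peak at chr4:105231006-105231139 (plus strand) held 16.3 reads, 69.9% of all reads there, and the mimic peak at chr4:105231026-105231138 held 10.3, or 44.6%. The next miRNAs were of the miR-15/16 group, miR-195a-5p with 2.0 reads in MOV control and miR-16-5p with 4.95 in MOV mimic. The ratio was 0.642 (0.254 to 1.47). All 4 members were named in the control peak. The Plpp3 transcript has no match to bases 2 to 8, but it has 1 match to bases 2 to 7, which lies 1662 nt from its end and inside both peaks (1628 to 1761 and 1629 to 1741 nt). The 6 matching bases are in capitals.
Plpp3: atctcatcagacagtaGAATGTa

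Other led peaks of at least 3 reads were on genes of several kinds. There were 10 such peaks in MOV control and 15 in MOV mimic. Idh3g, a subunit of mitochondrial isocitrate dehydrogenase, had 7.36 miR-181 reads in MOV control and 1.76 in MOV mimic, and its control peak at chrX:73780213-73780285 (minus strand) was 70.9% miR-181. H2-K1, a class I histocompatibility gene, had 5.78 and 3.2 reads and was led in both libraries. Man2a1, a Golgi mannosidase of N-glycan processing, had 0.115 reads in MOV control and 6.72 in MOV mimic. Ccn4, a secreted matricellular protein, had 4.75 and 0.644 reads. Tpr, a nuclear pore protein, had 1.64 and 4.29 reads, with miR-181 leading in both libraries. In contrast to H2-K1 and Tpr, Kmt2a, Nr6a1 and Mbnl1 had 3.66, 3.64 and 6.44 reads in MOV mimic and 0 in MOV control. A count of 0 in MOV control still allows up to 3 reads.

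Peaks led by miR-181 carried the seed match more often than peaks without miR-181. The match to bases 2 to 8, TGAATGT in the letters of the transcript, was looked for on the transcript strand in 1 transcript per gene. The match was at the place of the peak, judged by distance from the 3′ end, in 17 of 39 led peaks that lay within the length of the 3′ untranslated region, or 43.6% (27.8 to 60.4). It was there in 18 of 73 peaks of at least 1 read that miR-181 did not lead, or 24.7% (15.3 to 36.1), and in 17 of 153 peaks under 1 read, or 11.1% (6.61 to 17.2). Among 10330 peaks with no miR-181 read it was there in 152, or 1.47% (1.25 to 1.72). Median peak lengths were 63, 103, 69 and 65 nt in these classes. By library, the match was in 4 of 17 led and 8 of 37 other peaks of at least 1 read for MOV control, 23.5% and 21.6%, and in 13 of 22 and 10 of 36 for MOV mimic, 59.1% and 27.8%. Among led peaks of at least 3 reads it was in 0 of 3 and 5 of 10. The intervals of led peaks and of other peaks of at least 1 read overlap, so a difference between these was not shown, while all 3 classes with miR-181 lay above the peaks without it. A place bound in both libraries counts once in each. The transcripts are of an older annotation than the gene ends, and where these differ a match at the place of the peak is missed or misplaced.

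Over whole transcripts the classes had the same order. The match occurred in the transcripts of 54 of 86 genes with a led peak, or 62.8% (51.7 to 73.0). It occurred in 222 of 497 genes with a miR-181 peak but no led one, or 44.7% (40.2 to 49.2), and in 2005 of 6857 genes bound by other miRNAs alone, or 29.2% (28.2 to 30.3). Of all 20283 transcripts, 23.7% held it. Transcripts of genes with a led peak were longer, with a median of 4424 nt against 3357 nt for genes bound by other miRNAs alone. Per kilobase they still held more matches, 0.238 against 0.104, with 0.165 for genes whose miR-181 peaks were not led.

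**Figure D3:**
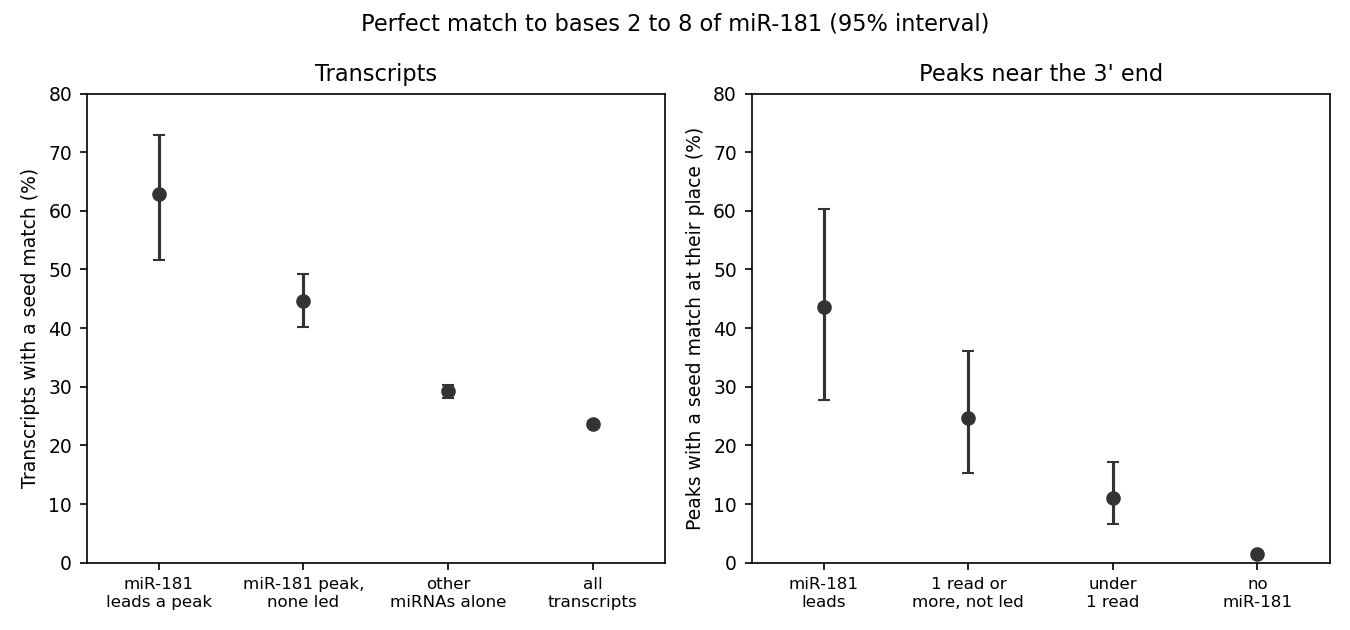
Left, percent of transcripts (y axis) that hold the match to bases 2 to 8 of miR-181, for genes with a led peak, genes with a miR-181 peak that was not led, genes bound by other miRNAs alone and all transcripts. Right, percent of peaks near the 3′ end (y axis) with the match at their place, by class of miR-181 reads, both libraries together. Points are shares and bars 95% Clopper-Pearson intervals, and the share at the place of the peak goes from 43.6% in led peaks to 1.47% in peaks without miR-181.

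The matched sites with the most reads or with a role in gene regulation are given as examples. Led peaks without a match, such as that on Idh3g, are not among them. Each line gives the site from 15 bases before the match to 1 base after it, with the match in capitals, and all lie in the 3′ untranslated region of the GENCODE vM1 transcript. The genes were chosen after their values had been seen.
Man2a1: aacattttgactattTGAATGTa
Mbnl1: gagggaactgacagaTGAATGTg
Kmt2a: ctctctacgaaagacTGAATGTa
Nr6a1: atttcacgacagagtTGAATGTa
Zfp36l1: gcacacacataaagaTGAATGTa
Ddit4: atcttacagactgcaTGAATGTa
Ago2: tgagacctgaaggctTGAATGTa
The Man2a1 peak at chr17:64753566-64753624 (plus strand) held 6.72 reads in MOV mimic, 74.8% of the peak, and its match lies 1521 nt from the end, with the peak at 1486 to 1544 nt. Mbnl1, a splicing regulator of muscle, had 4.19 reads at chr3:60626891-60626945 (plus strand), with the peak at 2805 to 2859 nt and the match at 2811 nt. The Kmt2a peak at chr9:44803468-44803531 (minus strand) held 3.66 reads and named miR-181 alone, on a histone methyltransferase, with the match at 125 nt.

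Nr6a1, an orphan nuclear receptor, had 3.64 reads of miR-181a-5p at chr2:38727614-38727673 (minus strand), and these were all the chimeric reads of any miRNA on the gene in both libraries. The gene spans chr2:38723369-38926461, and the second copies of miR-181a-5p and miR-181b-5p lie within this span on the other strand. Its match lies at 4271 nt from the end and the peak at 4245 to 4304 nt. Zfp36l1, which destabilizes mRNAs with AU-rich elements, had 3.27 reads in MOV control at chr12:80107881-80108031 (minus strand) and 0 in MOV mimic. Ddit4, an inhibitor of mTORC1, had 3.0 reads in MOV mimic at chr10:59949883-59950047 (minus strand) and 0 in MOV control. miR-181 did not lead the last 2 peaks, where it had 17.0% and 18.3% of the reads. Ago2 itself had 1.47 reads in MOV control at chr15:73102305-73102355 (minus strand), 71.0% of a small peak. Of 19 matches at the place of a led peak or of a peak of at least 3 reads, 11 were followed by an A, or 57.9% (33.5 to 79.7), against 28.5% of 7256 matches in all transcripts. The 19 all lie in the 3′ untranslated region, while the 7256 include coding sequence. The shares are therefore not of like regions, and whether they differ within the 3′ untranslated region was not tested. An A across from the first base of the miRNA is a known feature of strong sites.

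The genes with the most miR-181 reads included muscle, matrix and mitochondrial genes as well as places where many miRNAs were found. Outside the mitochondrial chromosome and the ribosomal RNA gene Rn18s-rs5, the 15 genes with the most reads were Cmss1, Chchd10, Ttn, Plpp3, Lars2, Otud1, Neb, Col1a1, Acta1, H19, Ccng1, Atp5b, Btg2, Myh1 and Gm15564. Cmss1 carried 27.2 reads in MOV control and 17.4 in MOV mimic. Its main control peak at chr16:57391571-57391665 (minus strand) held 21.6 miR-181 reads among 798.2 reads of 62 miRNA names, or 2.7%. On Cmss1 miR-181b-5p had more reads than miR-181a-5p in both libraries, 14.1 against 10.1 in MOV control and 11.2 against 6.11 in MOV mimic, the reverse of the family's order. Otud1, a deubiquitinase, had 8.72 and 12.7 reads, and its main peak at chr2:19659487-19659635 (plus strand) named all 4 members in MOV control. miR-181 had 11.8% of that peak's reads in MOV control and 21.4% of the matching mimic peak.

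Sarcomere genes drew many miR-181 peaks but a small share of miR-181. Of 25 listed sarcomere genes, 18 had a miR-181 peak, against 610 of 8070 genes bound by any miRNA, or 7.56%. These genes also carried many reads of all miRNAs, 45382 in MOV control and 58320 in MOV mimic, and miR-181 made up 0.108% of them, against 0.250% over all genes. Titin (Ttn) carried 11.4 miR-181 reads over 18 peaks in MOV control and 23.5 over 26 peaks in MOV mimic, with 17514 and 23568 reads of all miRNAs. Nebulin (Neb) had 9.39 and 9.53 reads, skeletal actin (Acta1) 12.4 and 4.81, and the fast myosin Myh1 4.15 and 6.23. The main Acta1 control peak held 8.79 miR-181 reads among 80 miRNA names. The Ttn peak of most miR-181 reads held 6.15 in MOV mimic, and no Ttn peak of MOV control reached 2 reads.

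**Figure D4:**
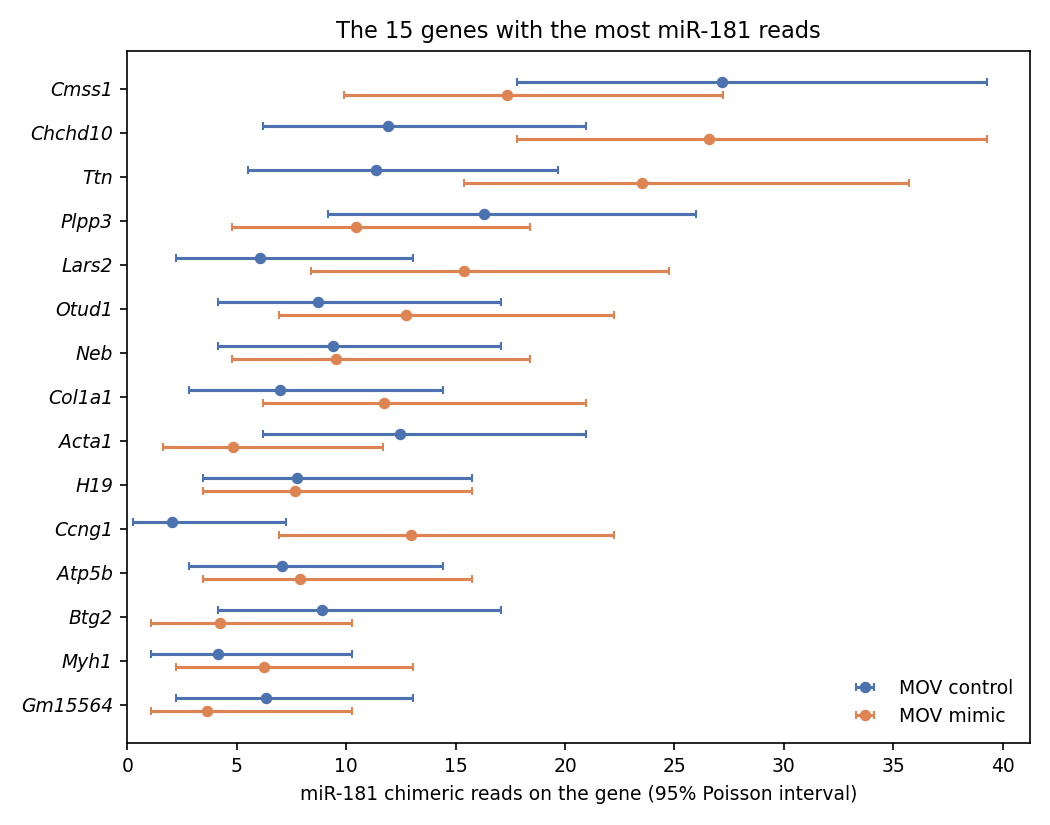
miR-181 chimeric reads (x axis) on the 15 genes with the most family reads, in the MOV control and MOV mimic libraries, with 95% Poisson intervals. The intervals of the libraries overlap for all 15 genes, Ccng1 with 2.05 and 13.0 reads included.

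The other gene groups are counted over their members bound by any miRNA, where all genes had 7.56% with a miR-181 peak and 0.250% of reads from miR-181. Matrix genes had 13 of 22 with a miR-181 peak, or 59.1%, and 0.193% of their reads from miR-181. Col1a1, a fibrillar collagen chain, had 6.99 reads in MOV control and 11.7 in MOV mimic, in main peaks of 73 and 80 miRNA names. Calcium handling genes had 6 of 12, or 50%, and 0.152% of reads, among them Trdn, which anchors the release complex, with 3.0 reads in MOV control and under 1 read in MOV mimic. Glycolysis genes had 5 of 13, or 38.5%, and 0.0840% of reads, with Aldoa at 2.02 and 0.753. Mitochondrial quality genes had 3 of 23, or 13.0%, and 0.223% of reads, on Sqstm1, Gabarapl1 and Opa1, all under 1 read. Genes of myogenic control had 2 of 14, or 14.3%, and 0.0636% of reads, on Myog with 0.297 reads in MOV control and Igf2 with 1.0 in MOV mimic. Genes of the small RNA machinery had 5 of 8, or 62.5%, and 1.23% of reads, on Ago2, Tnrc6a, Tnrc6b, Tnrc6c and Dicer1. Tnrc6b, a scaffold of silencing complexes, had 1.0 and 2.97 reads, and Dicer1, which makes mature miRNAs, 2.03 and 0.

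Of 33 listed genes that are reported elsewhere as miR-181 targets, 22 were bound by some miRNA and 5 of these had a miR-181 peak, or 22.7%, against 7.56% of all bound genes. miR-181 made up 0.382% of their reads, against 0.250% over all genes. Cdkn1b, a cell cycle inhibitor, had the most, with 2.0 reads in MOV control and 1.95 in MOV mimic, at chr6:134924309-134924497 (plus strand) and an overlapping mimic peak. The miR-181 reads behind these peaks were few. Fos, Hspa5, Sqstm1 and Timp3 had at most 1.0 read in either library, and no gene of the list reached 3 reads. C2H2 zinc finger genes, whose repeated coding sequence is known to hold miR-181 sites, had 9 of 104 bound genes with a miR-181 peak, or 8.65%, near the 7.56% of all genes. These genes were listed by symbol, Zfp followed by digits, and whether each has C2H2 fingers was not checked. Their share of reads from miR-181 was 0.798%. Zfp809, which silences retroviruses in stem cells, had 2.01 and 3.95 reads, and miR-181 led its mimic peak at chr9:22239078-22239166 (plus strand) with 85.3% of the reads. Its transcript holds 3 matches to bases 2 to 8, all in the coding sequence. The mimic peak lies 14951 to 15039 nt from the gene's end, and the transcript is 1209 nt long. The peak is measured along the gene and the matches along the transcript, so whether a match lies in the peak could not be judged. Of the 3 matches, 1 is shown for comparison with the sites above.
Zfp809: gggcgagaaaccataTGAATGTa

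On the mitochondrial chromosome, miR-181 had few reads. Of its reads, 13.2 or 2.17% (1.14 to 3.62) were there in MOV control and 15.1 or 2.39% (1.34 to 3.90) in MOV mimic, against 13.7% and 13.4% for all other miRNAs. Among the 111 other seed families the median was 2.68% in MOV control and 2.95% in MOV mimic. miR-181 lay below the sum of other miRNAs but close to the median family. The reads were on mt-Rnr2 (7.42 and 5.41), the large ribosomal RNA, mt-Rnr1 (3.91 and 4.88), the small one, and the respiratory chain genes ND5 (0.908 and 3.43), CYTB (0.990 and 0.349) and ND1 (0 and 1.0). miR-181c-5p, the member known from mitochondria of the heart with COX1 as its target, had 2.41 reads there in MOV control and 0.420 in MOV mimic. On COX1 no miR-181 read was found among 176.9 chimeric reads in MOV control and 303.3 in MOV mimic, which allows 3 reads or a share of up to 1.70% and 0.989%. The match to bases 2 to 8 was absent from both strands of the 16299 nt mitochondrial sequence.

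The ribosomal RNA gene Rn18s-rs5 took a larger part of the family. It held 66.9 miR-181 reads in MOV control, 11% (8.63 to 13.8) of the family, and 65.0 in MOV mimic, 10.3% (8.05 to 13.0). Other miRNAs had 6.70% and 6.40% of their reads there. The peak of most miR-181 reads, at chr17:39847443-39847525, named 160 miRNAs in MOV control and miR-181 held 1.54% of its reads.

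Overlap between the libraries went with the number of reads in a peak. Of 494 control peaks, 124 or 25.1% (21.3 to 29.2) overlapped a miR-181 peak of the mimic, and of 557 mimic peaks, 120 or 21.5% (18.2 to 25.2) overlapped one of the control. Among control peaks, 17.1% of those under 1 read, 28.5% of those from 1 to under 3 reads and 84.8% (68.1 to 94.9) of those with at least 3 were found in MOV mimic. Peaks of other seed families had 24.2%, 39.7% and 84.6% in the same classes. Led peaks of at least 3 reads were found again in 7 of 10 cases from the control and 10 of 15 from the mimic, against 21 of 23 and 19 of 21 peaks of at least 3 reads that miR-181 did not lead. By gene, 352 genes had a miR-181 peak in MOV control and 369 in MOV mimic, 111 of them in both, and at 3 or more reads 39 and 36 genes, 21 of them in both.

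**Figure D5:**
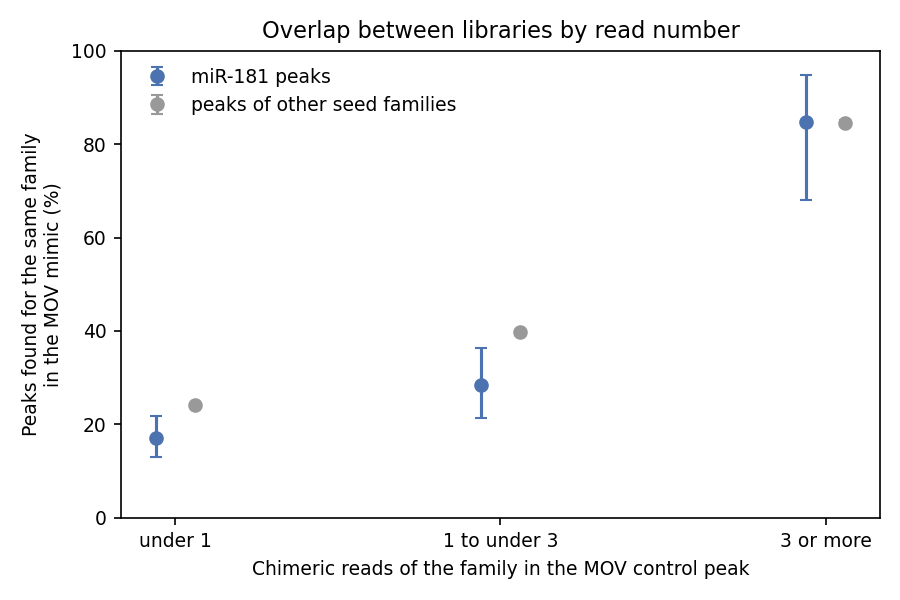
Percent of MOV control peaks for which the MOV mimic had an overlapping peak of the same seed family (y axis), by the family's chimeric reads in the control peak (x axis), for miR-181 and for all other seed families, with 95% Clopper-Pearson intervals. The share for miR-181 goes from 17.1% under 1 read to 84.8% at 3 or more.

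On peaks present in both libraries, miR-181 reads did not move one way. Over 111 shared peaks the log2 ratio, mimic over control, had a median of -0.02 (-0.32 to 0.22), with an SD of 1.88 between peaks, and 50 peaks were higher in MOV mimic. Over shared peaks of other seed families the median was 0.06 (0.05 to 0.08). Of the 111 peaks, 24 were past a 2-fold difference upward in MOV mimic, or 21.6%, and 27 downward, or 24.3%, where 23.9% and 19.3% of 28198 shared peaks of other seed families were. Of the shared peaks, 16 had 3 or more miR-181 reads in each library, and their median was again -0.02, with an SD of 0.79.

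Among genes with at least 10 miR-181 reads over both libraries, 4 of 16 were more than 2-fold higher in MOV mimic and 2 more than 2-fold lower. Gene ratios and their intervals were not divided by the library totals. The mimic library was deeper by a factor of 1.12, which raises each of them, so calls and interval ends close to a limit depend on depth. The same limit was passed upward by 13.2% and downward by 8.94% of the 5277 pairs of a gene and another seed family with as many reads. The higher genes were Ccng1, Lars2, Chchd10 and Ttn, followed by Col1a1. Ccng1, a cyclin known as a p53 target, had 2.05 reads in MOV control and 13.0 in MOV mimic, a ratio of 6.32 (1.47 to 59.3), while reads of other miRNAs on it had a ratio of 1.74. In its main peak, at chr11:40751267-40751351 (minus strand) in MOV control, miR-1a-3p had the most reads, 8.82 in MOV control and 22.3 in MOV mimic. Lars2, the mitochondrial leucyl-tRNA synthetase, had 6.08 and 15.4 reads, a ratio of 2.53 (0.917 to 7.86). Its control peaks at chr9:123461939-123462056 and chr9:123462057-123462186 (plus strand) named 55 and 47 miRNAs, and miR-181 held 3.01% and 1.84% of their reads. In MOV mimic the same stretch was cut into other peaks. miR-181 led those at chr9:123462014-123462052 and chr9:123462053-123462072, with 11.4% and 24.2% of the reads, and held 2.83% and 2.30% of the others. Col1a1 had a ratio of 1.68 (0.622 to 5.14), and Ttn of 2.07 (1.03 to 4.93) where its reads of all miRNAs had 1.35. The lower genes were Acta1, with a ratio of 0.387 (0.115 to 1.27), and Btg2, an antiproliferative gene with 8.88 and 4.22 reads and a ratio of 0.475 (0.100 to 1.59). They were followed by Cmss1 with a ratio of 0.639 (0.322 to 1.2), Plpp3, and mt-Rnr2 with 0.728 (0.179 to 2.61). Gm15564, a long noncoding RNA just under 10 reads in all, had 6.34 and 3.65 reads, in peaks of 33 and 31 miRNA names. H19, an imprinted long noncoding RNA, had 7.76 and 7.68 reads, and Atp5b, a subunit of ATP synthase, 7.07 and 7.90.

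The tissue was checked through the genes that miRNAs were bound to. All 8 markers of skeletal muscle fibers were bound, with 36691 reads of all miRNAs in MOV control and 48197 in MOV mimic, and the heart markers Myh6, Nppa and Myl7 were at 0, as were Alb of liver and Pax7 of satellite cells. Fibroblast markers carried 4181 and 4118 reads, smooth muscle markers 102.6 and 133.9, immune markers 32.1 and 36.9, and endothelial markers 20.5 and 39.1. Within these lists Cnn1 of smooth muscle and Cd68 and Cd3e of immune cells were at 0 in both libraries. Pecam1 of endothelium was at 0 in MOV control. Acta2 held 93.4 and 113.6 of the smooth muscle reads. The family's only immune marker was Lyz2, a macrophage lysozyme, with 0 reads in MOV control and 3.61 in MOV mimic. In bulk muscle, fewer cells of a type and less RNA per cell cannot be told apart, and which cells a miR-181 chimera came from was not tested.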

How the data were processed

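Chimeric Ago2 eCLIP-seq of the MOV control and MOV mimic plantaris was used, with 1 library each. The files deposited by the authors hold estimated counts, the chimeric reads of 1 miRNA in 1 peak, not scaled to depth. Only 17.4% of values in the control and 16.7% in the mimic were whole, within 1e-06. Per the labels, UMI-tools 1.1.1, cutadapt 3.2, STAR 2.7.7a, Bowtie 1.2.3 and HOMER 4.11 were used with the mm10 build, and the methods name CLIPper and mm9. The methods also mention an amplification with a miR-1 primer, so shares of reads describe these files and not miRNA abundance in muscle. Coordinates were treated as GRCm38 (mm10), because 36 and 35 peaks lay beyond mm9 chromosome ends, and are counted from 1.

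miR-181 reads were summed per peak with Python 3.11.15, pandas 2.3.3 and SciPy 1.17.1. Each peak was given the RefSeq GRCm38.p6 gene of largest overlap on its strand, or one of unknown strand where there was none, from 49980 genes of which 13509 had no known strand. For comparison, miRNA names were grouped by bases 2 to 8 of the RefSeq mature sequence, found for 543 of 659 names. Each other name was kept as a family of its own, whatever its seed. Shares have exact Clopper-Pearson, reads exact Poisson, ratios exact conditional binomial and medians order-statistic intervals, all at 95% on reads rounded to whole numbers. A ratio past 2-fold was counted on reads as deposited.

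Seed matches were planned on sequence of the files' build, which was not used here. They were therefore read from the longest GENCODE vM1 transcript of each gene name, and placed by their distance from the 3′ end. The mitochondrial sequence is that of mm9, whose 37 gene spans are identical. Scripts were tested on simulated data. Genes were named by rule (the 15 with the most miR-181 reads, mitochondrial genes, reported targets of at least 3 reads, and the 5 highest and 5 lowest ratios among genes of at least 10 reads), and others were chosen after their values were seen. The members and gene lists were chosen with earlier results of these data known. Alternatives were a minimum of 1 or 3 reads, removal of the mitochondrial chromosome or Rn18s-rs5, division by totals, other rules of overlap and gene assignment, and single members.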

Additional observations from a re-analysis of the deposited data

Results flagged for a closer look

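The 3p arms of the miR-181 loci, which the comparisons above do not use, had reads in both libraries above the 3 reads that a count of 0 allows. They summed to 4.81 reads in MOV control over 7 lines and to 4.70 reads in MOV mimic over 10 lines, with no line above 1.0 read.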

How the results depend on the processing

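No paired analysis was possible because the groups had a single library apiece. Of 113 recomputed values, 71 stayed within the interval of the reported value or within 1.5 times the reported count, 42 moved, and none that was called changed sign. The family ratio and the median over shared peaks stayed within their intervals under every alternative run. Peaks rest mostly on under 1 read, and at 3 reads each library keeps few peaks. The single library per group, the unexplained fractions and the older transcript set limit the results as well. Counting reads of all miRNAs, the family's share was 0.262% in MOV control and 0.243% in MOV mimic. With at least 1 read per miRNA and peak, its share of peaks was 1.05% and 1.04%, with 146 and 145 target genes, 39 of them in both. At that minimum miR-181a-5p held 74.1% and miR-181b-5p 15.3% of the control's family reads, miR-181d-5p 3.94% of the mimic's, miR-181d-5p had a ratio of 0.611, and the mitochondrial share in MOV control was 0.994%. With at least 3 reads per miRNA and peak, the share of peaks was 0.382% and 0.409%, 56.5% of control peaks were found in MOV mimic, and there were 18 and 20 target genes, 10 in both. This cut is on single members, whereas the 84.8% of control peaks and the 39 and 36 genes given above are by family reads. At 3 reads the ratio was 2.34 for miR-181b-5p and 0.585 for miR-181d-5p, the control's split was 83.0% miR-181a-5p, 12.8% miR-181b-5p, 0% miR-181c-5p and 4.26% miR-181d-5p, the mimic's was 69.9%, 25.9%, 2.0% and 2.16%, and the mitochondrial share was 0% in both. In peaks of a single member, the control had 77.7% miR-181a-5p, 15% miR-181b-5p and 3.74% miR-181d-5p, and the mimic 74.7% miR-181a-5p, 16.1% miR-181b-5p and 3.35% miR-181c-5p. A reciprocal overlap of 50% found 19.6% of control peaks again, and overlap with a peak of any miRNA 64.4%. At least 2 peaks per gene left 70 and 71 genes, 25 in both. The match to bases 2 to 7, an alternative added after seeing the data, was in 84.9% of genes with a led peak. It was also in 75.1% of genes with a miR-181 peak but no led one. Genes bound by other miRNAs alone had it in 58.8% and all transcripts in 49.9%. The causes of these shifts were not tested.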

Other observations

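Some led peaks had no gene in the annotation used. The peak at chr8:107014550-107014632 (GRCm38, plus strand) held 5.82 miR-181 reads in MOV mimic, 95.9% of the peak, and the overlapping control peak at chr8:107014557-107014609 held 2.57 reads, all of them miR-181. The peak at chr7:110059702-110059756 (minus strand) held 4.92 reads in MOV control, 73.4% of the peak, and its mimic counterpart held 1.0.

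By distance from the 3′ end, several strong led peaks had the seed match beside the peak, not in it. Match and peak are measured from the ends of different annotations. An offset between these ends could place a match outside its peak, which was not tested. On H2-K1 the match lies 110 nt from the transcript's end and the mimic peak at 121 to 194 nt. On Ddx3x, an RNA helicase with 2.52 miR-181 reads in MOV control and 3.49 in MOV mimic, adjoining matches lie at 630 and 637 nt and the mimic peak at 555 to 623 nt. On Ccn4 the match lies at 174 nt and the control peak at 208 to 366 nt. With 20 nt of slack, 22 of 39 led peaks near the 3′ end had a match, or 56.4%, with 35.3% in MOV control and 72.7% in MOV mimic. The same slack gave 26.0% of other peaks of at least 1 read, 20.3% of peaks under 1 read and 2.20% of peaks without miR-181. In the same region, runs of at least 8 bases complementary to the part of a member beyond its seed were found in 0 of 39 led peaks, 2 of 73 other peaks of at least 1 read (2.74%), 2 of 153 peaks under 1 read (1.31%) and 52 of 10330 peaks without miR-181 (0.503%). Peaks that reach past the annotated 3′ untranslated region are not in these counts. Among those, the led peak on Abra held a run of 8 bases complementary to bases 16 to 23 of miR-181a-5p, besides the run of 12 on Chchd10.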
